A study of Homo sapiens with 3 samples.

Results

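The genes described here encode the AP-1 transcription factors. The members are 10 genes, namely FOS, FOSB, FOSL1, FOSL2, JUN, JUNB, JUND, ATF3, BATF and BATF3. They were taken by gene name from the array files, and they account for 10 of the 43317 gene names and 13 of the 58201 probes. ATF3 had 4 probes and each of the other members had 1. The arrays profiled HCT116, a colorectal cancer cell line, after small interfering RNA (siRNA) was used to lower SMARCA4, the ATPase of the SWI/SNF complex that moves nucleosomes on chromatin. The conditions were SMARCA4-KD1, SMARCA4-KD2 and the negative control (NC), with a single array for each, all from cells of the same line, the transfection reagent being Lipofectamine 3000. The comparison asked which genes differed in level when SMARCA4 was lowered by either siRNA.

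An siRNA against SMARCA4 from the study is shown because such siRNAs define the treated groups, as 19 bases from 5′ to 3′. The labels number the siRNAs but do not say outright which array received which.
siRNA 1: ucgcuuugguucgcaaauc

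The sample titles named SMARCA4 while the treatment field of the knockdown samples named PRMT1, and the knockdown number came from that field. On the arrays 26.6% of the NC signal of SMARCA4 was left with SMARCA4-KD1 and 28.8% with SMARCA4-KD2, whereas PRMT1 was 0.27 and 0.37 higher than NC on the log2 scale. The knockdown arrays shared a slide that did not hold NC, so slide and treatment cannot be told apart. NC served both comparisons, and any deviation of that array enters both differences. Between 45.7% and 47.3% of probes were well above background on an array. Of 10 markers of colorectal epithelium, 7 were tested and none was 1.5-fold apart from NC in either knockdown, including EPCAM, KRT8, KRT18 and KRT19. VIL1 and CEACAM5 were not above background, and GPA33 was left out for an outlier spot. Of the markers of other cell types, 1 of 5 fibroblast genes (COL1A1), the immune genes PTPRC and CD14, and 1 of 2 endothelial genes (CDH5) passed the filter, while COL1A2, DCN, LUM, PDGFRA, CD3E and PECAM1 were not above background. The summed signal of the fibroblast markers was 477, 387 and 348 in SMARCA4-KD1, SMARCA4-KD2 and NC, and that of the endothelial marker was 46.0, 61.2 and 36.9. In the same order, PTPRC read 49.4, 37.0 and 46.3 and CD14 read 54.4, 45.8 and 53.2. The part of these markers in the results was not tested.

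AP-1 is a dimer of basic leucine zipper proteins. JUN proteins can pair with themselves or with FOS proteins, while FOS proteins need a JUN partner to bind DNA with high affinity, and ATF3, BATF and BATF3 can join JUN proteins as well. The dimers bind the TRE, a short element that responds to phorbol ester, or the related CRE, which responds to cyclic AMP. Several of these genes are immediate early genes, which are transcribed within minutes of growth factor or stress signals through MAP kinases, and in epithelial tumours AP-1 is known for its part in proliferation and invasion.

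Promoter sequences of 4 members are shown because FOS, FOSB and JUN stood highest among the members and JUNB is a JUN paralog that stood closer to NC than JUN. Each is the 250 bases before the transcription start in RefSeq, on GRCh38.p14, in the direction of transcription. The windows are chr14:75278578-75278827 on the plus strand for FOS, chr19:45467746-45467995 on the plus strand for FOSB, chr1:58784048-58784297 on the minus strand for JUN and chr19:12791236-12791485 on the plus strand for JUNB. Capitals mark matches to TGACG, the core of the CRE, to TGACATCA, the TRE variant known from the JUN promoter, and to TATAAA, the TATA box.
FOS: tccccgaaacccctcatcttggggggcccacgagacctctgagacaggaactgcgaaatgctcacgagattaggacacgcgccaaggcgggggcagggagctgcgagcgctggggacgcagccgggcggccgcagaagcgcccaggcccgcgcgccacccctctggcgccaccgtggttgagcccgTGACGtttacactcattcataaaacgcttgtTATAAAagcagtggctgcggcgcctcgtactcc
FOSB: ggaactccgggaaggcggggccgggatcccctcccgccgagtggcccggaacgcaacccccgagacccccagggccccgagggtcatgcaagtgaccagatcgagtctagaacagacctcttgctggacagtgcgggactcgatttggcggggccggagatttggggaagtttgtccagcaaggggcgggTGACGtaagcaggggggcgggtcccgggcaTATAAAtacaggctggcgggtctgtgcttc
JUN: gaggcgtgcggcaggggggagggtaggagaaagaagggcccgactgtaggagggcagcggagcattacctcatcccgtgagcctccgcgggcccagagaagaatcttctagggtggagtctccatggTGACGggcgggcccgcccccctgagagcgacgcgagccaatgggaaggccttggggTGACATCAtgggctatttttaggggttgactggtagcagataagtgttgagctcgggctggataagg
JUNB: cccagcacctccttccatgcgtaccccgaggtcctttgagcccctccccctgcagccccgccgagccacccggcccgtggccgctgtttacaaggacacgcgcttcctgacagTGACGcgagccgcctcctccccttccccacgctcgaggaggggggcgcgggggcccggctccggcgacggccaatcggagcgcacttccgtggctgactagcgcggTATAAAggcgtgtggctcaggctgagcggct

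The RefSeq table held 9 such windows for 8 of the members, with 2 for ATF3, and FOSL1 and BATF3 had no entry. Letters were matched on both strands, and every match to TGACGTCA, the full CRE, is also a match to its core. The core TGACG stood in 6 of the 9 windows (FOS, FOSB, FOSL2, JUN, JUNB and JUND), against 21.2% of the 35116 windows in the table. Those 6 windows held 62.0% to 74.8% G or C and the other member windows 43.2% to 49.2%, beside a median of 58.0% over all windows. The part of base composition in these counts was not tested. The core lay between 64 and 60 bases before the start of FOS and between 60 and 56 bases before that of FOSB, upstream of a TATAAA in each. TATAAA stood in 4 of the 9 windows (FOS, FOSB, JUNB and the second start of ATF3), against 3763 of all 35116 windows. It began 33 bases before the start of FOS, 30 before that of FOSB and 31 before that of JUNB. In ATF3 it began 230 bases before the start, so that match is one of letters only. TGACATCA stood between 67 and 60 bases before the start of JUN and, from 123 bases before it, upstream of the first start of ATF3, and in 2.38% of all windows. TGACGTCA was matched in JUND, and in 1.65% of all windows. No window of a member held TGACTCA, the TRE, or a CArG box, the element bound by serum response factor, which stood in 1476 and 407 of all windows. Sequence more than 250 bases before a start was not searched, so an element there would be missed. These matches describe letters in the window and were not tested against the expression values.

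Of the 10 members, 9 passed the filter on dim probes, all well above background on all 3 arrays. JUN, FOS, FOSB and ATF3 exceeded NC at least 1.5-fold in both knockdowns, 4 of the 9 members tested, where 6.35% of the 22620 genes tested did. None of the 9 was at least 1.5-fold lower in both, against 8.05% of all genes. Regardless of size, 7 members were higher in both knockdowns (41.1% of all genes), FOSL2 was lower in both (39.3% of all genes) and FOSL1 differed in direction between them. The log2 differences of the 9 members had medians of 0.60 for SMARCA4-KD1 and 0.67 for SMARCA4-KD2, beside -0.0038 and 0.02 over all genes. With 1 array per condition the 1.5-fold threshold carries no test, and the error given with a difference is that of the extraction software, largely a fixed proportional error of 10% per signal. It does not hold the spread between cultures.

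**Figure D1:**
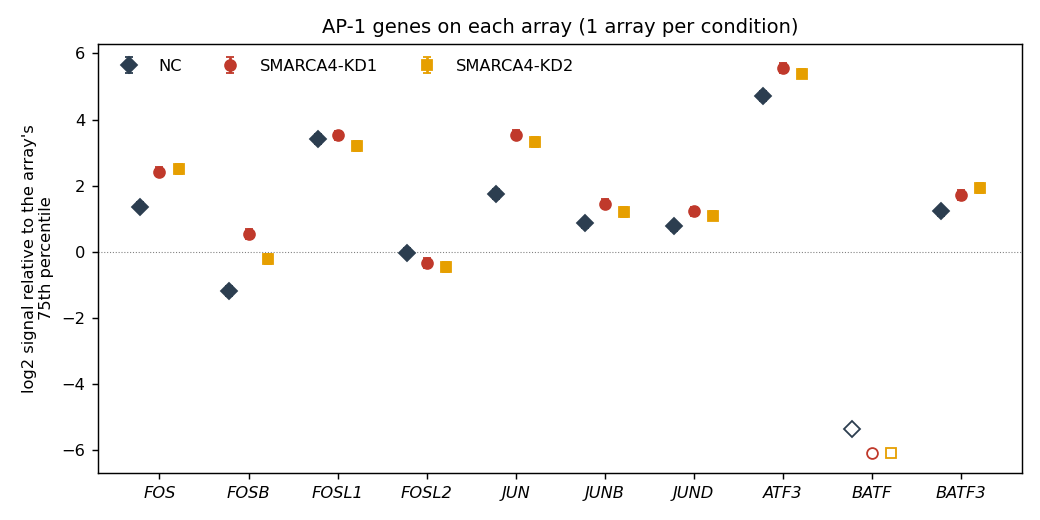
The log2 signal of each AP-1 gene relative to the 75th percentile of its array is plotted for SMARCA4-KD1, SMARCA4-KD2 and NC, with 1 array each, error bars for the extraction error and open symbols for values not well above background. JUN, FOS and FOSB lie well above their NC value in both knockdowns, FOSL1 lies on both sides of NC, and only BATF has open symbols. Levels are comparable between arrays for 1 gene and not between genes.

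In the JUN family, JUN itself, the most strongly transactivating of the JUN proteins, stood furthest from NC. Positions are those of the array files, and exons were not assigned here. Where 3 signals follow each other without a condition, their order is SMARCA4-KD1, SMARCA4-KD2, NC. Its probe, at chr1:59246511-59246570 of hg19 on the minus strand, read 747.5 in NC, against 2774 with SMARCA4-KD1 and 2291 with SMARCA4-KD2. Both knockdown arrays lay far above NC and differed from each other by 0.22 on the log2 scale. JUN was at 349.7% of NC with SMARCA4-KD1 and at 299.7% with SMARCA4-KD2, log2 differences of 1.81 and 1.58 with an extraction error of 0.20 each. By the smaller of both differences JUN ranked 45 from the top of 22620 genes.

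JUNB, an AP-1 subunit that activates less strongly than JUN and can restrain it, gave 652.7, 527 and 406 in SMARCA4-KD1, SMARCA4-KD2 and NC (chr19:12902998-12903057). Its log2 differences were 0.60 and 0.34, so that it passed 1.5-fold in SMARCA4-KD1 only, and did so there in 5 of 8 other settings. JUND, the JUN paralog that is broadly present in unstimulated cells, gave 554.7, 488.5 and 381 (chr19:18391371-18391430), log2 differences of 0.46 and 0.33. Both paralogs were on the higher side of NC in both knockdowns, with a gap that was smaller than that of JUN in each knockdown, although that contrast was not tested.

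In the FOS family, FOS and FOSB, whose proteins carry transactivation domains and whose transcripts turn over quickly, were higher in both knockdowns. FOS (chr14:75748214-75748273) read 578 in NC, against 1277 with SMARCA4-KD1 and 1296 with SMARCA4-KD2. The knockdown arrays were nearly equal, 0.07 apart on the log2 scale, and both lay above NC. FOS was 2.08-fold and 2.19-fold higher, log2 differences of 1.06 and 1.13 with an extraction error of 0.20 each.

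FOSB (chr19:45978205-45978264) read 98.9 in NC, against 343 with SMARCA4-KD1 and 195.5 with SMARCA4-KD2. Both knockdown arrays exceeded NC, and SMARCA4-KD1 was the highest. The log2 differences from NC were 1.71 and 0.95, with extraction errors of 0.21 each. With normexp background correction they were 1.26 and 0.65.

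FOSL1 and FOSL2 encode FOS-related antigens that lack the transactivation domain of FOS and are often abundant in carcinoma cells. FOSL1 (chr11:65660098-65660157) read 2382 in NC, against 2720 with SMARCA4-KD1 and 2091 with SMARCA4-KD2, so that the NC array lay between both knockdown arrays. Its log2 differences were 0.11 and -0.22, about the size of the extraction error of 0.20. FOSL2 (chr2:28637175-28637234) gave 188.5, 167.7 and 220, with NC the highest and log2 differences of -0.31 and -0.42. Neither gene was 1.5-fold apart from NC in either knockdown, while 12.3% of all genes were at least that much lower in SMARCA4-KD1 and 9.77% in SMARCA4-KD2.

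**Figure D2:**
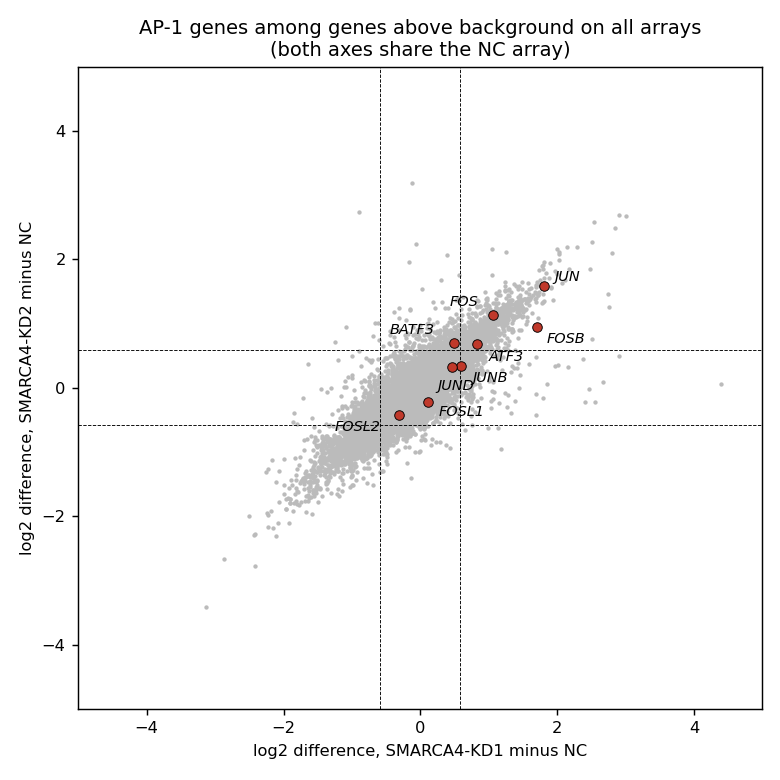
Each point is a gene detected above background on all 3 arrays, placed by its log2 difference from NC in SMARCA4-KD1 (horizontal) and SMARCA4-KD2 (vertical), with AP-1 genes in red and dashed lines at 1.5-fold. JUN, at 1.81 and 1.58, FOS, FOSB and ATF3 lie in the upper right field, while FOSL1 and FOSL2 lie near the centre. Both axes share the NC array.

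ATF3, a stress-inducible member of the ATF/CREB family that represses as a homodimer and can activate with JUN, was measured by 4 probes on chromosome 1, all on the plus strand. The brightest, at chr1:212793856-212793915, read 5877 in NC, against 11120 with SMARCA4-KD1 and 9588 with SMARCA4-KD2, log2 differences of 0.83 and 0.67. The most upstream, at chr1:212788502-212788561, gave 746, 594 and 336, log2 differences of 1.07 and 0.79. Each of these probes passed 1.5-fold in both knockdowns. The probe at chr1:212792837-212792896 gave 339, 296 and 195, log2 differences of 0.72 and 0.57, the second of which is 1.49-fold. The probe at chr1:212792519-212792578 gave 153, 142 and 121, log2 differences of 0.25 and 0.20 with an extraction error of 0.21. All 4 probes had the order SMARCA4-KD1, SMARCA4-KD2, NC from high to low, with sizes that differed between probes. With the mean over its probes ATF3 was at 0.56 in SMARCA4-KD2, below 1.5-fold. The probe with the smallest difference is listed in the file for transcripts NM_001040619 and NM_001206486, whereas the others list NM_001674 among theirs.

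**Figure D3:**
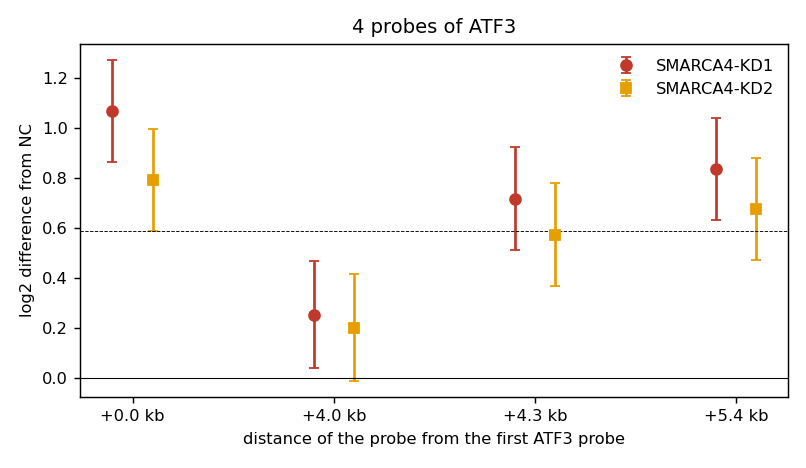
The log2 difference from NC is plotted for the 4 ATF3 probes in order of distance from the first, for SMARCA4-KD1 and SMARCA4-KD2, with error bars for the extraction error and a dashed line at 1.5-fold. All points lie above 0, and the probe with differences of 0.25 and 0.20 lies lowest.

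BATF and BATF3 encode short basic leucine zipper proteins that lack a transactivation domain of their own and are best known from lymphoid and dendritic cells. BATF3 (chr1:212860028-212860087) read 523 in NC, against 783 with SMARCA4-KD1 and 869 with SMARCA4-KD2, log2 differences of 0.50 and 0.70, so that it passed 1.5-fold in SMARCA4-KD2 only. BATF (chr14:76013251-76013310) gave 3.54, 3.35 and 5.48 and was not well above background on any array, and no difference is given for it. The BATF3 probe lies 66.1 kb from the nearest ATF3 probe on chromosome 1, and the FOS and BATF probes lie 265.0 kb apart on chromosome 14. These distances are between probes of members only, without regard to genes in between. ATF3 and BATF3 were both higher than NC in both knockdowns, BATF3 by less than 1.5-fold in SMARCA4-KD1, while of FOS and BATF only FOS was detected.

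Counted within each knockdown, 5 of the 9 members tested were at least 1.5-fold higher in SMARCA4-KD1 (FOS, FOSB, JUN, JUNB and ATF3), against 11.2% of all genes, and 5 were so in SMARCA4-KD2 (FOS, FOSB, JUN, ATF3 and BATF3), against 10.1%. Both counts rest on the same NC array. At 2-fold in both knockdowns FOS and JUN were left, 2 of the 9 members tested, against 1.46% of all genes. Between the knockdowns, FOSB was 1.69-fold higher in SMARCA4-KD1 than in SMARCA4-KD2, a log2 difference of 0.76, where 6.6% of all genes were at least 1.5-fold apart in either direction, 3.05% were that much higher in SMARCA4-KD1, and 95% of the 19497 genes above background on all arrays lay between -0.52 and 0.44. The other members were within 1.5-fold of each other between the knockdowns, with FOSL1 the next at 1.25-fold.

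limma was fitted over all 22620 genes with both knockdown arrays taken as 2 samples of a SMARCA4 knockdown against NC, a fit with 1 residual degree of freedom in which NC is assumed to vary as the knockdown arrays do. With Benjamini-Hochberg adjustment limma called none of the 9 members and 0 genes in all (0% of those tested) at 0.05, the smallest adjusted p over all genes being 0.107. At an unadjusted p under 0.05 it called 5 members (JUN, FOS, ATF3, BATF3 and JUND), all higher, where 30.4% of all genes passed that level and 15.9% passed it on the higher side. The methods' t-test called 0 members after adjustment and 1, FOS, at an unadjusted p under 0.05. Without adjustment it called 3224 of all 22620 genes. JUN had a mean log2 difference of 1.70 (SE 0.14), and the SE of FOS was 0.09, each with an adjusted p of 0.107 by limma. FOSB had 1.33 (SE 0.42) with an adjusted p of 0.177 by limma, the wider error going with the gap between its knockdown arrays. Over 8 other settings the adjusted p of limma ran from 0.000367 to 0.115 for JUN and from 0.000483 to 0.115 for FOS. It ran from 0.0142 to 0.183 for FOSB, from 0.00384 to 0.119 for ATF3 and from 0.0159 to 0.133 for BATF3. The lowest values came with no filter, where limma called 27350 of 43299 genes. That of FOSB came with the filter on all arrays, where it called 5176 of 19504. The fit without an intensity trend is not among these 8, and its smallest adjusted p over all genes was 0.138 by limma.

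Hand-written lists of genes that work with AP-1 were set beside the members in the same comparison, described by their counts and medians. Among 19 other basic leucine zipper genes that can pair with AP-1 subunits, 18 were tested, and their median mean difference was -0.03, beside 0.03 over all genes. ATF7, a relative of ATF2, was at least 1.5-fold higher in both knockdowns (0.67 and 0.59), 1 of 18, and 3 of 18 were lower to that extent (6.35% and 8.05% of all genes). With quantile normalization, normexp background correction or the percentile over probes detected on all arrays, 0 of 18 were higher and 3 were lower. In these settings, in that order, 5.67%, 3.99% and 5.17% of all genes were higher and 8.6%, 3.8% and 9.3% lower. JDP2, a JUN partner that represses AP-1 sites, read 1220 in NC, against 427 with SMARCA4-KD1 and 474 with SMARCA4-KD2. It was lower by 1.60 and 1.39 on the log2 scale. NFE2 (-0.83 and -0.96), which binds a related element, was lower too.

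Of 25 kinases and factors that act upstream of FOS and JUN, 24 were tested, and 6 stood above and 2 below NC by 1.5-fold or more in both knockdowns, with a median mean difference of 0.23. Over all genes 6.35% stood above and 8.05% below to that extent. The 6 became 5 with quantile normalization or normexp background correction and 4 with the percentile over detected probes. Of all genes, 5.67%, 3.99% and 5.17% were higher in these settings, in that order. The 2 became 1 when probes were averaged, where 7.69% of all genes were lower. MAPK11, a p38 kinase, had differences of 1.13 and 1.04, and ELK3, a partner of serum response factor, had 1.04 and 0.89. SRF itself had 0.72 and 0.59, but 0.44 and 0.34 with normexp, under 1.5-fold. MAP2K7, which activates JUN kinases, had 0.61 and 0.73. The first is close to 0.585, the log2 of 1.5-fold, and fell under it with the percentile over detected probes. RPS6KA4, a kinase that phosphorylates CREB and histone H3, had 0.83 and 0.76. The JUN kinase gene MAPK9 (-0.88 and -0.74) and RPS6KA2 (-1.11 and -0.85), a ribosomal S6 kinase, were lower. Of 13 genes that degrade or restrain AP-1 proteins, such as FBXW7 and COPS5, 0 were 1.5-fold apart from NC in both knockdowns in either direction, and their median mean difference was 0.18. The shares of all genes were again 6.35% higher and 8.05% lower.

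Of 25 other immediate early genes, 13 exceeded NC at least 1.5-fold in both knockdowns, PHLDA1 was at least 1.5-fold lower (-1.23 and -1.19), and the median mean difference was 0.66. Over all genes 6.35% were higher and 8.05% lower to that extent. The 13 became 12 with normexp background correction (3.99% of all genes) and 12 of 24 with the filter on all arrays (6.76%). They became 11 with quantile normalization (5.67%) or the percentile over detected probes (5.17%). The zinc finger factor genes EGR1 and EGR4 had differences of 1.24 and 1.28 and of 2.28 and 2.20, and EGR4 had 1.15 and 1.05 with normexp background correction. The nuclear receptor genes NR4A2 (1.22 and 1.21) and NR4A3 (1.38 and 1.31) were higher, as were CYR61 (1.56 and 1.04), a secreted matrix protein, and SGK1 (1.54 and 1.00), a kinase. EGR3 read 17.3 in NC, where it was not well above background, and 105.0 in SMARCA4-KD1. With the NC value raised to the lowest detected level, EGR3 was 5.60-fold higher in SMARCA4-KD1 and 5.92-fold higher in SMARCA4-KD2. These are log2 differences of 2.49 and 2.57, and their size depends on how background is handled. With normexp background correction the log2 differences of EGR3 were only 0.95 and 1.02.

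Of 25 genes known as AP-1 targets, 18 were tested, and the other 7, MMP1, MMP3, MMP10, MMP13, SERPINB2, IL6 and CCL2, did not pass the filter on dim probes. HMOX1, the heme oxygenase, was at least 1.5-fold higher in both knockdowns (0.94 and 0.98), 1 of 18, against 6.35% of all genes. At least 1.5-fold lower in both were 5 of 18, against 8.05% of all genes, and 3 of 18 with normexp background correction, where 859 genes in all were. They included SPP1, which encodes osteopontin (-1.93 and -1.72), PLAU, the urokinase (-1.22 and -0.82), CCND1, cyclin D1 (-0.72 and -0.99), and the cytokine IL11 (-0.67 and -0.61). With normexp IL11 had -0.50 and -0.49, under 1.5-fold, and SPP1 had -0.85 and -0.76. The median mean difference of the targets was -0.18, below that of the AP-1 genes themselves. Regardless of size, 12 of the 18 were lower in both knockdowns (39.3% of all genes) and 5 were higher in both (41.1% of all genes). Because the lists differ in size and were chosen with results of these arrays known, no test was run between them.

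The genes with the pattern nearest to that of FOS were sought among the 19496 other genes detected on all 3 arrays, by the Euclidean distance of both log2 differences, over 2 differences that share the NC array. They were LOC100130417 (1.05 and 1.12, distance 0.015), THC2526086 (distance 0.035), ZNF79 (distance 0.038), AREG, an EGFR ligand (1.09 and 1.16, distance 0.042), and lnc-PHACTR1-1 (distance 0.046). All 5 distances are smaller than the extraction error of 0.20.

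**Figure D4:**
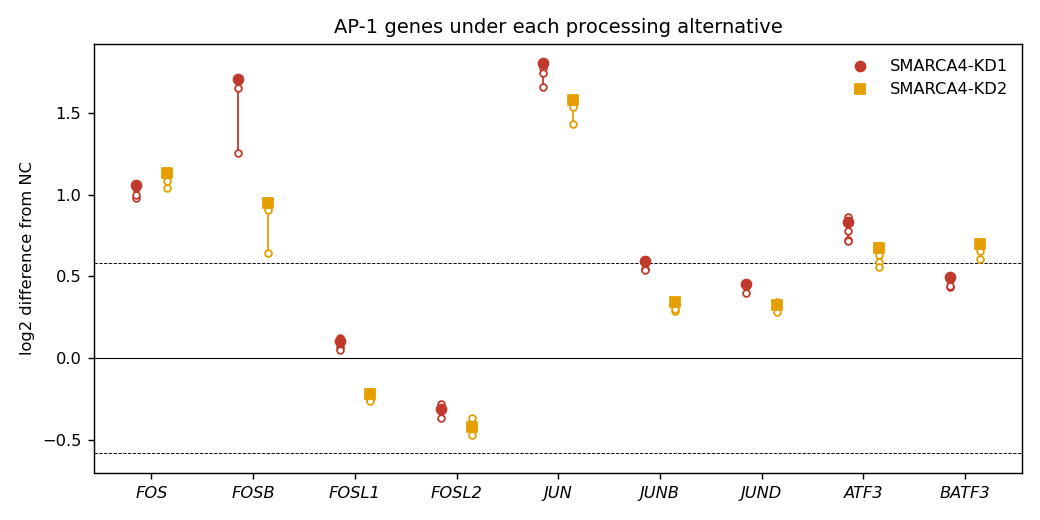
The log2 difference from NC of each of the 9 AP-1 genes tested is plotted for SMARCA4-KD1 and SMARCA4-KD2, with filled symbols for the values reported, open circles for each processing alternative, and dashed lines at 1.5-fold. JUN stays between 1.66 and 1.81 in SMARCA4-KD1, FOSB moves most, and no gene changes side of 0 in a knockdown.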

How the data were processed

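The 3 arrays were Agilent SurePrint G3 Human GE v3 arrays of 1 colour. In the deposited scanner output the unit is intensity per spot, produced by the authors in Agilent Feature Extraction (version 10.7.1.1 in the submitters' processing notes), with background subtraction and detrending and without normalization between arrays. A deposited series-level table of the same intensity values was an alternative source. From log2 of the processed signal, the 75th percentile of the non-control probes of each array was subtracted here. Dim values were raised to the lowest detected level of their array. Probes detected on any array (well above background by the extraction flag) stayed in, with the brightest probe standing for its gene, which left 22620 genes. Array positions are hg19 and promoters GRCh38.p14 (RefSeq), and all 13 member probes matched the RefSeq table by accession. Genes named are the members, SMARCA4, PRMT1, listed genes at least 1.5-fold apart from NC in both knockdowns (at most 6 per list and direction), the 5 genes nearest FOS, and, chosen after their values were seen, EGR3, with FBXW7 and COPS5 as examples. The members and lists were chosen with earlier results of these data known. limma 3.58.1 (R 4.3.3) with an intensity trend was fitted over all genes, and normexp used an offset of 50. No separate cultures are recorded, so p-values measure the spread between both knockdown arrays, which shared a slide. The single NC array adds nothing to that spread. The steps were tested on simulated data. The number of arrays limits the precision. Some listed genes and an siRNA are not reported here.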

Additional observations from a re-analysis of the deposited data

Results flagged for a closer look

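FOSL1 was singled out because its differences from NC had opposite signs, 0.11 in SMARCA4-KD1 and -0.22 in SMARCA4-KD2 on the log2 scale. Each knockdown is 1 array, both are compared with the same NC array, and the difference between the knockdowns was not tested.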

How the results depend on the processing

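Across the alternatives no difference of a member changed sign. The number of members at least 1.5-fold higher in both knockdowns, 4, was 2 at a threshold of 2-fold. The number of members called by limma at an adjusted p of 0.05, which was 0, was 3 with quantile normalization, 4 with normexp background correction, 4 without the floor, 5 with the filter on all arrays, 5 with the series-level table and 7 with no filter, and 5 at an unadjusted p and 1 with the methods' t-test unadjusted. The 7 include BATF, at the floor on every array, whose values have no order. At an unadjusted p under 0.05 limma called 30.4% of all genes, and the methods' t-test called 3224 of 22620. Over all genes limma called 2651 genes with quantile normalization, 3683 with normexp, 3360 without the floor, 5176 of 19504 with the filter on all arrays, 3730 of 22629 with the series-level table and 27350 of 43299 with no filter. With normexp 902 genes were at least 1.5-fold higher and 859 lower in both knockdowns, against 1436 and 1820. With no filter the median of all genes was -0.15. The mean over the probes of ATF3 took it below 1.5-fold in SMARCA4-KD2, at 0.56. No paired analysis was possible because each group has 1 array. Among the other lists, the higher bZIP partners went from 1 to 0 with quantile normalization, normexp and the percentile over detected probes, the lower upstream genes from 2 to 1 with the mean over probes, and the lower AP-1 targets from 5 to 3 with normexp. The median of the members lay between 0.52 and 0.60 over the alternatives. A single array per condition leaves the spread between cultures unmeasured.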
